A study of Mus musculus with 9 samples.

Results

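Oxidative phosphorylation subunits were examined in 9 MPC clones, primary cells that were grown out of mouse pancreatic tumors. The subunit genes were taken by symbol, as the 13 protein-coding genes of mitochondrial DNA and the nuclear genes named for subunits of complexes I to V (Nduf, Sdh, Uqcr, Cyc1, Cox and Atp5 genes). They came to 97 of the 18049 genes listed, of which 13 were mitochondrial and 84 nuclear. By complex, as the gene names give it, 7 mitochondrial and 37 nuclear genes belonged to complex I and 4 nuclear genes to complex II. Complex III had 1 and 9, complex IV had 3 and 16, and complex V had 2 and 18. Ndufa4 carries a complex I name and was counted there, and no values are given with it placed in complex IV.

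All clones carried the same genotype, WTg, in which the transgenes of EL1 mice (EL1-Luc/EL1-Tag) were combined with CAG-Mettl3. In EL1 mice, the pancreatic Elastase I promoter drives SV40 large T antigen and luciferase, on an FVB/N background. The CAG promoter of the added transgene is active in most cell types. Per the paper, the Mettl3 mice were made from fertilized eggs of a different strain and then crossed with EL1 mice. The WTg clones are therefore of mixed strain background, not of FVB/N alone. Each clone was a colony picked from cultured tumor cells, and the age and number of mice behind the 9 clones are not given in the sources used here. The labels name the cells fibroblasts with treatment none, although a protocol field also names NMS-P937 at 80 nM for 24 h. The study has 1 condition, so the questions open to these libraries were how the subunit genes varied between clones, and whether they moved with Mettl3, the gene of the transgene. MEF libraries listed beside the clones were not used.

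Oxidative phosphorylation is carried out in the inner mitochondrial membrane. Complexes I and II pass electrons from NADH and succinate to ubiquinone, complex III passes them on to cytochrome c, complex IV reduces oxygen, and complex V, the ATP synthase, uses the proton gradient so formed to make ATP. Except for complex II, each complex is assembled from subunits of both genomes, so transcripts of mitochondrial DNA, which are cut from long precursors, and transcripts of many separate nuclear genes have to supply the same complexes.

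The deposited values were scaled read counts on a log2 scale, and they are given here as normalized counts, 1 read being worth 1.26 to 2.19 of them. Total reads per library ran from 12198036 to 20453884, and 3 reads, the smallest number taken as detected, were worth 3.79 to 6.56 normalized counts. The column names fell under 3 prefixes of unstated meaning, which are given the letters A, B and C here. A had 1 library (A1), B had 4 (B1 to B4) and C had 4 (C1 to C4). A1 had the fewest reads and the highest Mettl3, at 2184 normalized counts against 468 to 621 in the other 8. Xist, the RNA that silences an X chromosome in female cells, was at 29664 to 32912 in prefix B and at or under 8.39 elsewhere, so that prefix, mouse, sex and batch cannot be told apart. The 12 fibroblast markers summed to 1.38% to 3.62% of all counts, but the 10 macrophage markers also summed to 2.10% to 3.28%, and the 5 epithelial markers, of which Epcam had no read, to 20.3 to 188 normalized counts. A mean of 10 normalized counts or more was required of a gene to be tested, which kept 14705 genes and 95 of the 97 subunit genes. The 2 others were Cox6c2, at 0 to 12 reads per library, and a second entry named Atp5o (ENSMUSG00000116933), at 0 reads throughout.

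The subunit genes together held 2.74% ± 0.334 of all normalized counts (SD, n = 9 clones). The 13 mitochondrial genes held 2.12% ± 0.339 and the nuclear genes 0.620% ± 0.0272. The ratio of the mitochondrial to the nuclear sum was 3.43 ± 0.611 (SD, n = 9). It was 2.74 in A1, 4.06, 3.50, 4.18 and 4.32 in B1 to B4, and 3.17, 3.01, 2.85 and 3.02 in C1 to C4. Every prefix B library thus lay above every other library. The nuclear sum did not split in this way, with 151833 to 162132 normalized counts in prefix B and 152108 to 171551 in prefix C, so the mitochondrial side carried the split. As bulk libraries were measured, fewer cells of a kind and less RNA per cell cannot be told apart. The ratio compares counts, not molecules, since lengths of the nuclear transcripts were not used here.

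**Figure D1:**
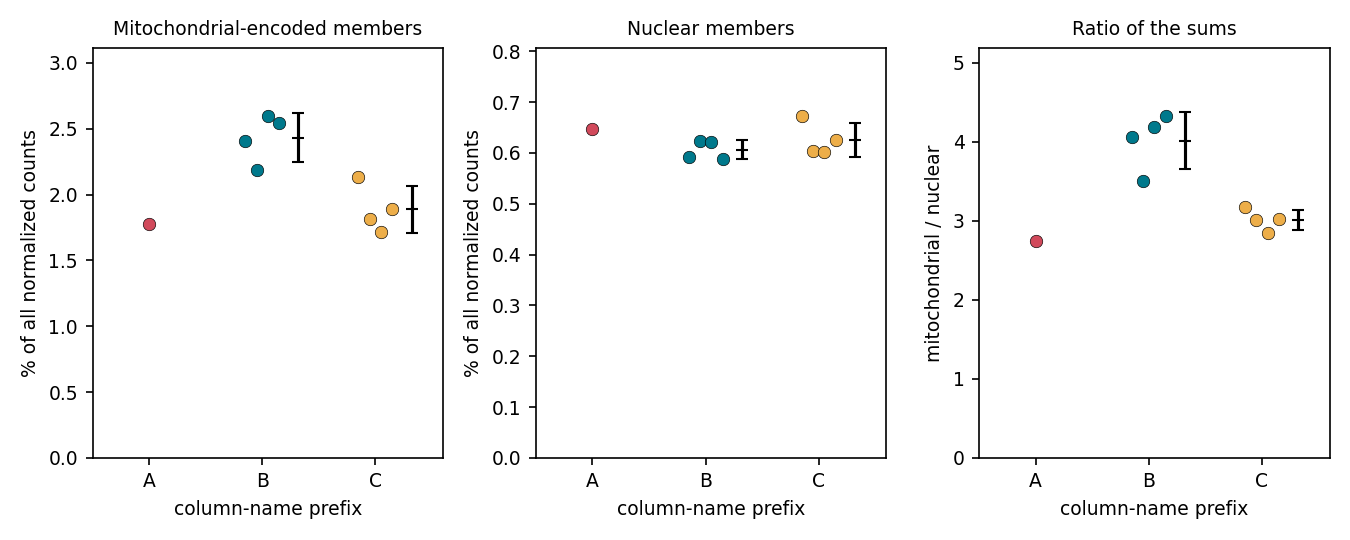
Share of all normalized counts held by the 13 mitochondrial and the 84 nuclear subunit genes, and the ratio of their sums, for each library (points) by column-name prefix. Bars give the mean ± SD of the 4 libraries of prefix B and of prefix C. The mitochondrial share and the ratio were higher in each prefix B library than in each prefix C library, while the nuclear shares overlapped.

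By complex, the ratio of mitochondrial to nuclear counts was 5.07 ± 0.956 in complex I, 4.20 ± 0.635 in complex III and 7.72 ± 1.15 in complex IV (SD, n = 9). In complex V it was 0.252 ± 0.0843, and in A1 it was 0.109. As counted, complex V was the only one of the 4 mixed complexes whose nuclear counts exceeded its mitochondrial counts in each of the 9 libraries. This direction turned in 8 of the 9 libraries once the counts of Gm10925, a nuclear copy of mt-Atp6 described below, were added. The ratio was then 1.52 to 1.83 in prefix B and 1.14 to 1.39 in prefix C, but still under 1 in A1, at 0.814. The mitochondrial genes of complex V are mt-Atp6 and mt-Atp8, which encode 2 subunits of the membrane part of the ATP synthase.

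The mitochondrial genes are compared per kilobase of gene, with positions from RefSeq's GRCm38.p6 annotation. mt-Co1 (ENSMUSG00000064351; MT:5328-6872), the catalytic subunit of complex IV, had the highest level, at 157274 ± 20970 normalized counts per kb (SD, n = 9). Unscaled for length, it was at 202473 to 291145 normalized counts with a median of 235501, was the gene with the fourth highest mean of all 18049, and made up 44.7% ± 1.88 of the mitochondrial sum. Next came mt-Cytb, the cytochrome b of complex III, at 57901 ± 8560 per kb, mt-Nd1 at 55012 ± 7684 and mt-Nd4 at 49529 ± 11614, both of the membrane arm of complex I. mt-Atp8 followed at 47400 ± 11842. Among neighbours in the order of the 13, mt-Co1 and mt-Cytb were the only pair whose ranges over the 9 libraries did not overlap.

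Lower in the order, mt-Nd5 was at 31427 ± 5578 per kb, mt-Nd2 at 30729 ± 6058 and mt-Nd4l at 22029 ± 8618. These also encode membrane subunits of complex I. mt-Atp6 was at 6956 ± 3363, mt-Nd3 at 5440 ± 2169, mt-Co2 at 2388 ± 792 and mt-Co3 at 2202 ± 1321. mt-Nd6 (MT:13552-14070), the 1 protein-coding gene on the other strand, was lowest, at 340 ± 97.5 per kb. Apart from mt-Nd6, the lower genes lay next to each other. mt-Nd4l, mt-Atp6, mt-Nd3, mt-Co2 and mt-Co3, at places 8 to 12 of the order, all lie between positions 7013 and 10173, and the 1 other gene of that stretch, mt-Atp8 (MT:7766-7969), was at place 5.

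**Figure D2:**
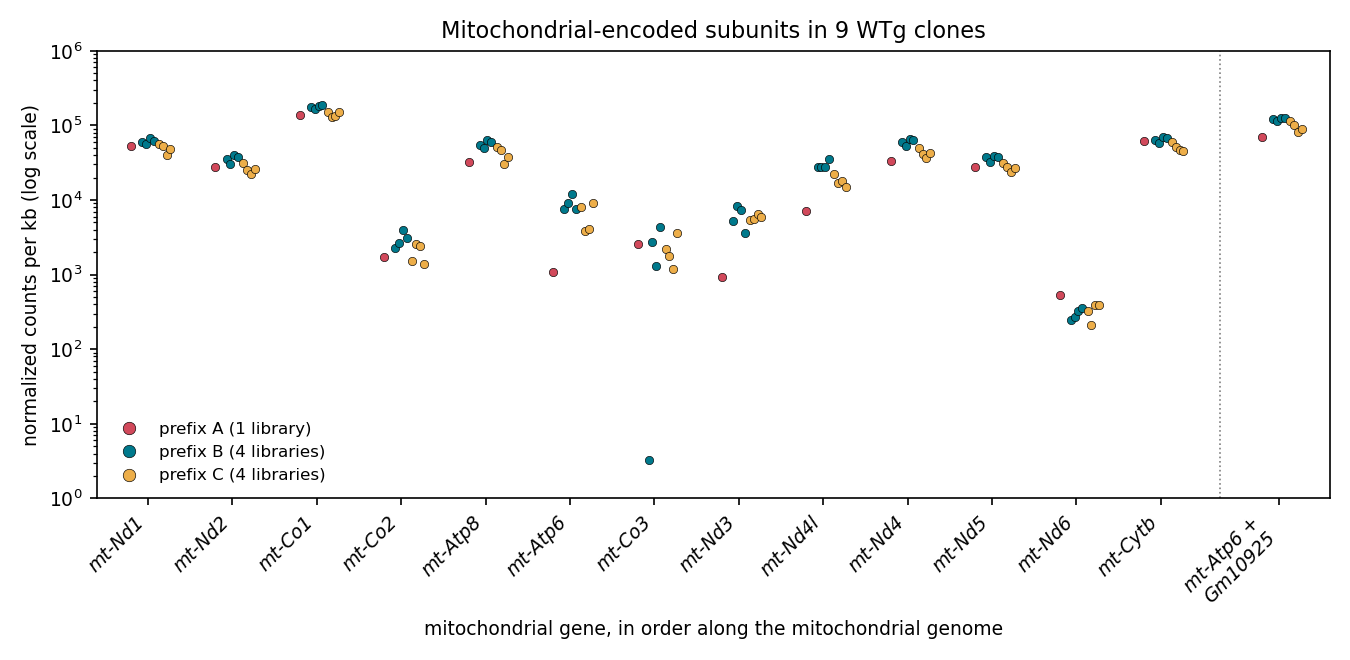
Normalized counts per kb of gene (log scale) for the 13 mitochondrial genes in their order on mitochondrial DNA, and for mt-Atp6 with the counts of its nuclear copy Gm10925 added. Points are the 9 libraries, coloured by column-name prefix. The levels drop by more than a factor of 10 from mt-Co1 to its neighbour mt-Co2, and the lowest mt-Co3 point, at 3.25 per kb, is B1.

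Genes taken as nuclear copies of mitochondrial DNA held counts of the same size. Gm10925 (ENSMUSG00000100862; chr1:24613971-24614651), which RefSeq lists as a pseudogene with mt-Atp6 among its synonyms, has the same length as mt-Atp6, 681 bases. It was at 66990 ± 12394 normalized counts (SD, n = 9), against 4737 ± 2290 for mt-Atp6. Of the counts of the pair, mt-Atp6 held 1.56% in A1 and 3.80% to 10.2% in the other 8 libraries. Most counts of this sequence were therefore listed under the nuclear copy. With Gm10925 added, mt-Atp6 was at 105326 ± 20616 normalized counts per kb, between mt-Co1 and mt-Cytb in level.

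A second pseudogene nearby, Gm10222 (chr1:24612404-24612700), has the length of mt-Nd4l, 297 bases, and the pair of pseudogenes spans 2248 bases, against 2247 from the start of mt-Atp6 to the end of mt-Nd4l. Gm10222 was at 0 to 3970 normalized counts. The 5 other genes, Gm28661, Gm28437, Gm29216, Gm28438 and Gm28439, were taken as copies although no row of the annotation at hand gave the mitochondrial gene they match. Gm28661 was at 77335 ± 8129, Gm28437 at 69674 ± 6318 and Gm29216 at 31838 ± 3161 normalized counts, and Gm28438 and Gm28439 had means of 2418 and 3.22. The 7 genes taken as copies, called nuclear copies below, together held 0.969% ± 0.111 of all counts. Reads of near-identical sequences can be divided between them in counting, so the level of any mitochondrial gene in the copied stretch is uncertain, and the part of this in the low values was not tested.

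The spread between clones also differed along mitochondrial DNA. mt-Co1, mt-Nd1, mt-Nd2, mt-Nd4, mt-Nd5 and mt-Cytb, the 6 with a mean above 20000 normalized counts, had an SD of log2 values of 0.19 to 0.35. mt-Co3, a core subunit of complex IV, was at 2.55 normalized counts in B1, 2132 in B2, 1017 in B3 and 3409 in B4, at 2009 in A1 and at 944 to 2870 in prefix C. The B1 value is 2 reads, in a library of 20133205 reads. mt-Nd3, a small subunit of complex I, was at 322 in A1, at 1266 to 2931 in prefix B and at 1895 to 2231 in prefix C. mt-Atp6 was at 748 in A1 and at 2604 to 8272 in the other 8, but with Gm10925 added it was at 48079 in A1 and at 55714 to 86800 in the others, so that the gap of A1 narrowed. Over the 9 libraries, the median Pearson's r of log2 values among pairs of the 6 high genes was 0.910, with a range of 0.670 to 0.986. Among the 7 others it was 0.298, and between the 6 high genes and the nuclear genes it was -0.0434. These are descriptions of genes that share libraries, precursors and scaling.

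The genes that are no subunit genes and followed mt-Co1 most closely over the 9 libraries were Tgoln1 (r = 0.97), Usp3 (r = 0.95) and Zfp560 (r = 0.95), among the 14705 genes tested. They were picked as the highest values among many genes over 9 libraries, so they are a description, and no relation was tested.

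The 82 tested nuclear subunit genes were detected in every clone, and most varied little. The median SD of log2 values over the 9 clones was 0.12 for these genes, against 0.25 for all genes tested and 0.16 for 2580 other genes between the quartiles of the nuclear genes' mean level. Of the 82, 76 (92.7%) had an SD under 0.25, against 49.8% of all genes tested and 75.0% of the genes of like level. By complex the medians were close, at 0.12 for complex I, 0.11 for complex II, 0.12 for complex III, 0.14 for complex IV and 0.11 for complex V. The 13 mitochondrial genes had a median of 0.39. The median Pearson's r among pairs of nuclear genes was 0.167.

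**Figure D3:**
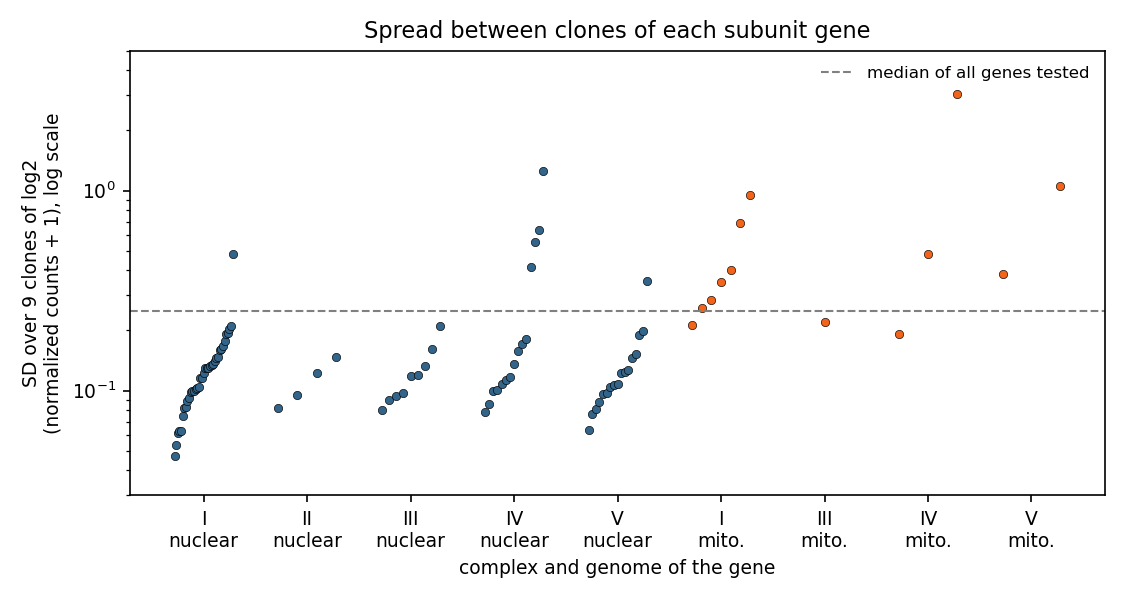
SD over the 9 clones of log2(normalized counts + 1) for each tested subunit gene (log scale), by complex and genome. Nuclear genes are blue, mitochondrial genes are orange, and the dashed line is the median of all genes tested, 0.25. Of the nuclear genes, 76 of 82 lie under 0.25, and the highest point is mt-Co3.

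In complex I, Ndufb4, an accessory subunit of the membrane arm, had the lowest count of the nuclear genes, at 198 ± 91.8 normalized counts (SD, n = 9), and also the largest spread, with an SD of log2 values of 0.48. Without A1 this SD was 0.13, and Ndufs4, at 0.16, had the largest. Such counts also depend on transcript length. In complex II, they ran from 1707 ± 178 for Sdhb, the iron-sulfur subunit, to 4675 ± 299 for Sdha, the flavoprotein subunit, and Sdhb had the largest spread, 0.15. In complex III, they ran from 1210 ± 80.4 for Uqcr10 to 2742 ± 156 for Uqcrc1, a core protein. The other core protein, Uqcrc2, had the largest spread there, 0.21, but without A1 it was at 0.09 and Uqcrfs1, the iron-sulfur subunit, had the largest, 0.14. In complex V, they ran from 853 ± 65.9 for Atp5mpl, a small membrane subunit, to 16100 ± 2166 for Atp5b, the catalytic beta subunit, and Atp5l, subunit g of the membrane part, had the largest spread, 0.35. Without A1, Atp5l was at 0.10 and Atp5b had the largest, 0.17.

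Several complex IV subunits exist in paralogs, of which some are found mainly in muscle, heart or testis. The common form held nearly all counts of each pair. Cox4i2, the form of subunit 4 induced by low oxygen, held 1.37% ± 0.984 of the counts of Cox4i1 and Cox4i2 (SD, n = 9). Cox6a2, the heart and muscle form, held 1.39% ± 0.587 beside Cox6a1, Cox6b2, the testis form, 1.37% ± 0.652 beside Cox6b1, and Cox7a1, the muscle form, 1.55% ± 0.430 beside Cox7a2. The common forms Cox4i1, Cox6a1, Cox6b1 and Cox7a2 were at 5819 ± 587, 3738 ± 202, 2889 ± 224 and 1425 ± 85.7 normalized counts. Cox7a2l, a relative of Cox7a2 that takes part in joining complexes III and IV, was at 3887 ± 428.

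The minor forms were among the nuclear genes with the largest spread. Cox4i2 was at 63.5 normalized counts in A1, at 135, 19.9, 24.6 and 49.2 in B1 to B4, and at 16.8, 126, 148 and 133 in C1 to C4, an SD of log2 values of 1.26. Its high and low libraries fell under both prefixes. Cox7a1 was the lowest of the tested nuclear genes, at 22.6 ± 6.98. Cox5a and Cox5b, which are separate subunits of complex IV, were at 2212 ± 244 and 2352 ± 267. Cox7b and Cox8a were at 2016 ± 140 and 3517 ± 275. The 3 genes for the same subunit c of the ATP synthase ring were at 1682 ± 114 for Atp5g1, 2056 ± 232 for Atp5g2 and 2732 ± 234 for Atp5g3, so no form dominated the counts. Of 6 pseudogenes named for nuclear subunit genes, 5 were above 0, and none exceeded 6.82% of its parent gene in any library.

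The promoters of nuclear subunit genes are a known place of action of NRF1, YY1 and ETS factors such as GABP. Promoters, from 250 bases before to 50 after the start, were at hand for 67 nuclear subunit genes and for 10657 other genes (RefSeq, GRCm38.p6). The NRF1 palindrome GCGCATGCGC stood in 5 of the 67 (7.46%) and in 2.20% of the other promoters. The YY1 motif AAGATGGCG, searched on both strands, stood in 7 (10.4%), those of Atp5j, Atp5j2, Ndufa9, Ndufc1, Ndufs4, Ndufs6 and Ndufs7, and in 3.40% of the others. The ETS motif ACTTCCGG, on both strands, stood in 5 (7.46%), those of Atp5h, Cox8a, Ndufs3, Uqcr11 and Uqcrh, and in 8.82% of the others. The NRF1 matches are shown as an example of the letters around such a motif, each within 30 bases of the gene's own strand, with the palindrome in capitals.
Atp5g2 (complex V, chr15:102671070-102671099, minus strand): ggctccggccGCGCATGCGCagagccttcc
Atp5k (complex V, chr5:108434430-108434459, minus strand): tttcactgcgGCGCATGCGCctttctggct
Cox6a1 (complex IV, chr5:115349101-115349130, minus strand): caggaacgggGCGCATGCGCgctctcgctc
Ndufa11 (complex I, chr17:56717692-56717721, plus strand): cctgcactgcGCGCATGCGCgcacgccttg
Uqcrc1 (complex III, chr9:108936668-108936697, plus strand): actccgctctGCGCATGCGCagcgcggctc
The palindrome began 42, 50, 162 and 60 bases before the start of Atp5g2, Atp5k, Cox6a1 and Ndufa11, and after the start in Uqcrc1. A match is a description of letters only, and binding was not measured.

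Whether the subunit genes differed between the libraries of prefix B and prefix C was tested with limma. None of the 95 passed at an adjusted p under 0.05, and 29 of the 14705 genes tested did, or 0.197% (0.0816% higher and 0.116% lower in prefix B). At an unadjusted p under 0.05, 14 of the 95 were found, against 20.1% of all genes tested. limma's voom on recovered reads also called 0 of the 95, with 16 at an unadjusted p under 0.05 against 19.8% of all genes tested. It called 23 genes in all, or 0.156% (0.0612% higher and 0.0952% lower in prefix B). The median log2 difference, prefix B minus prefix C, was 0.43 for the mitochondrial and -0.03 for the nuclear genes, beside 0.02 for all genes tested. Clones were picked as separate colonies, but as the mice behind them are not named, the p-values measure only the spread between these libraries.

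Of the subunit genes, mt-Nd4l had the smallest p. It was at 8186, 8228, 8240 and 10619 normalized counts in B1 to B4 and at 6572, 5071, 5394 and 4440 in C1 to C4, a log2 difference of 0.72 ± 0.135 (SE; adjusted p = 0.10, limma). The 4 values of prefix B were all above the 4 of prefix C. The values of mt-Nd5, mt-Nd4 and mt-Co1 did not overlap either. mt-Nd5 was at 58656 to 70896 against 42641 to 56392, a log2 difference of 0.43 ± 0.128 (adjusted p = 0.16, limma), and mt-Nd4 at 72276 to 89807 against 51049 to 69211, a difference of 0.49 ± 0.140 (adjusted p = 0.16, limma). mt-Co1 was at 252457 to 291145 against 202473 to 235501 (0.32 ± 0.199, adjusted p = 0.39, limma). mt-Nd2 overlapped, at 31692 to 42057 against 23187 to 31996 (0.46 ± 0.131, adjusted p = 0.16, limma). mt-Atp6 and mt-Co2 overlapped too, with differences of 0.61 and 0.60 (adjusted p = 0.30 and 0.22, limma), while mt-Nd3 and mt-Nd6 had 0.02 and -0.12. The difference furthest from 0 was that of mt-Co3, -2.00 ± 1.96, which includes the 2 reads of B1 (adjusted p = 0.57, limma). The 4 of 13 mitochondrial genes without overlap compare with 5.74% of all genes tested that were higher in each prefix B library.

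Among nuclear genes, 2 of 82, Ndufs7 and Uqcr11, were higher in each prefix B library. Ndufs7, a core subunit of complex I, was at 1107 to 1253 normalized counts in prefix B and at 908 to 1053 in prefix C (log2 difference 0.24 ± 0.0720, SE, adjusted p = 0.17, limma). Another 3, Atp5g3, Atp5mpl and Ndufc1, were higher in each prefix C library, against 4.55% of all genes tested. After scaling to the library total there were 6, against 4.76% of all. Atp5g3 was at 2449, 2723, 2534 and 2438 in B1 to B4 and at 3117, 2963, 2727 and 2904 in C1 to C4 (log2 difference -0.21 ± 0.0628, adjusted p = 0.17, limma). Its values in B2 and C3 were close to each other. Atp5o and Ndufa9 were lower by log2 differences of -0.22 ± 0.0690 and -0.20 ± 0.0686, with overlap (adjusted p = 0.17 and 0.19, limma). Ndufc1 and Atp5mpl each differed by -0.16 (adjusted p = 0.22 and 0.23, limma).

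The marker lists overlapped between these prefixes. The 10 macrophage markers summed to 2.64% to 3.07% of counts in prefix B and to 2.10% to 3.28% in prefix C, the 12 fibroblast markers to 1.38% to 2.19% and 1.90% to 3.62%, and the 6 markers of dividing cells to 0.0219% to 0.0393% and 0.0330% to 0.0730%. limma called 0 of these 28 genes, of which none was at 0 in all libraries, but it called only 0.197% of all genes tested. The median log2 differences, prefix B minus prefix C, were 0.31 for the macrophage, -0.65 for the fibroblast and -0.71 for the dividing cell markers. The fibroblast markers did not move together. Lum, Dcn and Fap were higher in prefix B, by 2.07, 1.79 and 0.20, and the rest were lower, down to -1.85 for Pdgfra. Lower lists also overlapped, with sums of 145 to 313 normalized counts in prefix B and 177 to 2415 in prefix C for the 6 acinar markers, 76.9 to 758 and 518 to 2014 for the 2 of 6 muscle markers listed, and 20.3 to 162 and 50.4 to 188 for the 5 epithelial markers, of which Epcam was at 0. Their median log2 differences were -2.58, -2.00 and -1.76, and limma called 0 of them. The 7 nuclear copies summed to 255999 to 281818 normalized counts in prefix B and to 210456 to 260475 in prefix C, and with the copies added the ratio to the nuclear sum was 5.08 to 6.17 in prefix B and 4.23 to 4.69 in prefix C. The split of the ratio was thus also present with the copies counted. The part of the cell markers in it was not tested.

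Genes that act on or with the complexes and were not taken as subunit genes by symbol were examined from 4 lists. Ndufab1, an Nduf gene that the symbols used did not take, was counted among the carriers. Of 45 assembly factors, 25 genes of mitochondrial gene expression, 9 regulators and 14 electron carriers and inhibitors tested, limma called 0 between prefixes B and C, with median log2 differences of 0.02, 0.05, -0.06 and -0.11. Those with the smallest p were Uqcc3 (0.26) and Ndufaf2 (-0.26) among assembly factors of complexes III and I, Polrmt (0.19), the mitochondrial RNA polymerase, and Fastkd3 (-0.21), an RNA-binding protein of mitochondria. Among regulators they were Hif1a and Yy1. Hif1a, the oxygen-regulated factor, was at 3140 to 3688 normalized counts in prefix B and at 4583 to 6705 in prefix C (-0.66 ± 0.143, adjusted p = 0.12, limma), and Yy1 at 3119 to 3312 and 2693 to 2956 (0.19 ± 0.0519, adjusted p = 0.15, limma). Neither overlapped between the prefixes. Among carriers, Slc25a4, an ADP/ATP translocase, differed by -0.27 and Ucp2, an inner membrane carrier, by 0.59 (adjusted p = 0.16 and 0.19, limma). Ppargc1a, a coactivator of mitochondrial genes in many tissues, was at 0 to 2.52 normalized counts and so at or under 3 reads in all 9 libraries, while its relative Pprc1 was at 1336 to 2064.

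Association with log2 Mettl3 was tested over the 9 clones with limma. Of the 95 subunit genes, 4 rose and 1 fell at an adjusted p under 0.05, against 0.360% and 2.26% of the 14704 genes tested (all but Mettl3), or 2.63% in either direction. At an unadjusted p under 0.05, 28 of the 95 were found, against 15.0% of all. Ndufb4 rose with a slope of 0.65 ± 0.0963 log2 units per log2 unit of Mettl3 (SE; adjusted p = 0.0079, limma) and Atp5l with 0.47 ± 0.0705 (adjusted p = 0.0082, limma). Uqcrc2 rose with 0.27 ± 0.0554 (adjusted p = 0.038, limma) and Ndufb1, an accessory subunit of complex I, with 0.22 ± 0.0467 (adjusted p = 0.041, limma). mt-Nd3 fell with a slope of -1.18 ± 0.220 (adjusted p = 0.023, limma). This gene (MT:9459-9806) lies between mt-Atp6 and mt-Nd4l, in the stretch matched by length to nuclear copies, so its level is uncertain. The part of this in its slope was not tested. With voom on recovered reads, Ndufb4 and Atp5l passed and the other 3 did not, with 0.415% of all genes called (0.245% rising and 0.170% falling). At an unadjusted p under 0.05, voom found 25 of the 95, against 11.3% of all.

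The slopes rested on A1, the library with the highest Mettl3. Ndufb4 was at 440 normalized counts in A1, at 174, 175, 153 and 179 in B1 to B4 and at 181, 139, 172 and 165 in C1 to C4. Atp5l was at 3147 in A1, at 1398, 1628, 1430 and 1532 in B1 to B4 and at 1689, 1503, 1563 and 1635 in C1 to C4. In both genes A1 stood alone and the other 8 lay close together. Without A1, limma called 0 of the 95 subunit genes and 0 of 14704 genes, with 2 of the 95 and 11.1% of all at an unadjusted p under 0.05. The slopes of Ndufb4, Atp5l and Ndufb1 were then -0.04, -0.23 and -0.02, that of Uqcrc2 was 0.02, and that of mt-Nd3 was 1.31. A1 also had the fewest reads and is the only library of its prefix, so Mettl3, clone and prefix cannot be told apart.

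**Figure D4:**
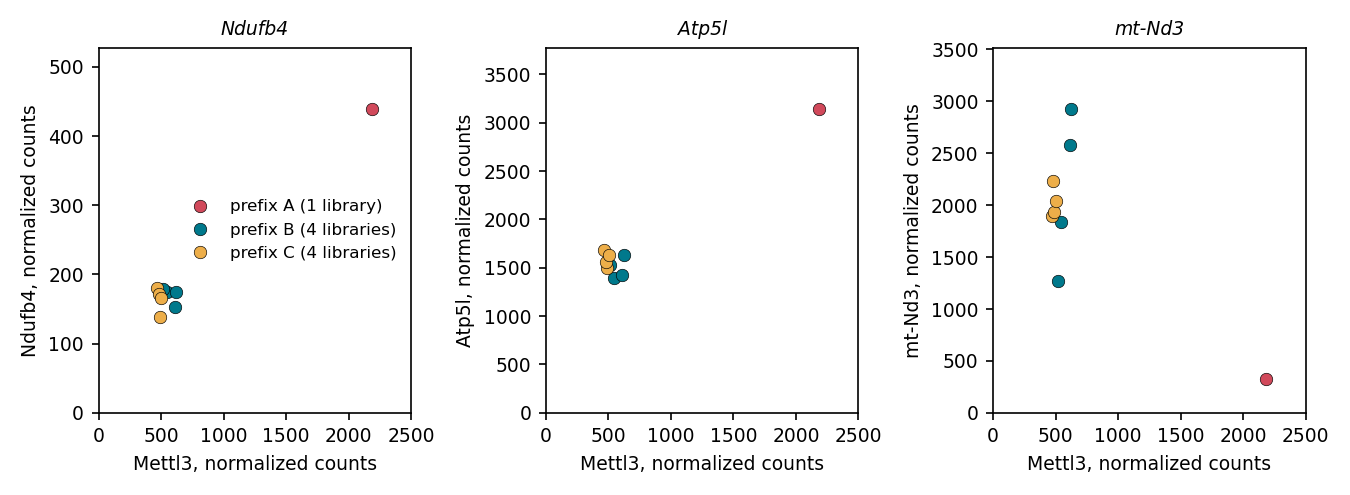
Normalized counts of Ndufb4, Atp5l and mt-Nd3 against those of Mettl3 in the 9 libraries, coloured by column-name prefix. The prefix A library lies apart from the other 8 in each panel, with Mettl3 at 2184, while the other libraries have Mettl3 between 468 and 621.

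The next members in order of p did not pass. Atp5g2 had a slope of 0.19 and Cox5a, Cox5b, Ndufc2 and mt-Atp6 had slopes of -0.21, -0.22, -0.25 and -1.17 (adjusted p = 0.065, 0.066, 0.072, 0.086 and 0.10, limma). Of the related lists, 0 of the assembly factors, mitochondrial gene expression genes, regulators and carriers were called against Mettl3.

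A1 lay outside the range of the other 8 libraries in 32 of the 82 nuclear genes as the highest, against 19.9% of all genes tested, and in 19 as the lowest, against 20.4%. These counts changed with the scaling, and so did the shares of all genes tested. After scaling to the upper quartile, 21 were highest and 28 lowest, against 13.5% and 26.7% of all genes tested. After scaling to the library total, they were 24 and 26, against 15.2% and 24.4%. These alternatives were chosen after seeing the data. On the log2 scale, A1 exceeded the nearest other library by 1.28 for Ndufb4, 0.90 for Atp5l, 0.47 for Uqcrc2, 0.45 for mt-Nd6 and 0.36 for Ndufb1. It lay under the nearest one by differences of -1.97 for mt-Nd3, -1.80 for mt-Atp6, -1.06 for mt-Nd4l, -0.39 for Cox5b and -0.37 for Ndufc2. Of the mitochondrial genes, mt-Nd6 was highest in A1, and mt-Atp6, mt-Nd3, mt-Nd4 and mt-Nd4l were lowest, under all 3 scalings. mt-Nd4l was at 2131 normalized counts in A1 and at 4440 to 10619 in the other 8, and mt-Nd6 at 280 against 111 to 205. Gm10222, the nuclear copy with the length of mt-Nd4l, was at 3970 in A1 and at 0 to 3208 in the others. It was thus above mt-Nd4l in A1 and below it in each of the other 8, as in C3 with 0 against 5394. The counts of Gm10222 and mt-Nd4l were not added here. How far the division of reads between them made mt-Nd4l lowest in A1 was not tested. With 1 library there is no replicate of this difference.

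**Figure D5:**
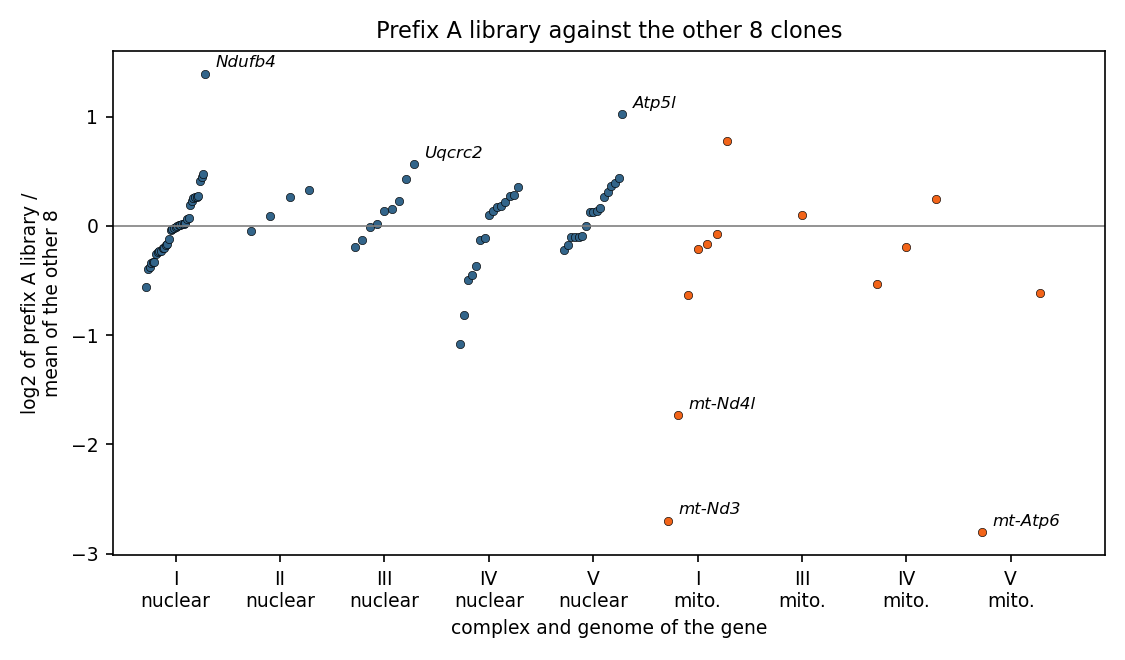
Log2 ratio of the prefix A library to the mean of the other 8 libraries for each tested subunit gene, by complex and genome. Most nuclear genes (blue) lie near 0, with Ndufb4 and Atp5l highest, and mt-Nd3, mt-Atp6 and mt-Nd4l lie lowest among the mitochondrial genes (orange).

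Finally, 1 mitochondrial and 1 nuclear subunit of each mixed complex were correlated over the 9 clones on the log2 scale. For mt-Nd1 and Ndufs1, a core subunit of complex I, r was 0.102 and rho -0.0333 (exact two-sided permutation test, p = 0.77 and 0.95). For mt-Cytb and Uqcrc1, r was 0.218 and rho 0.0333 (exact permutation, p = 0.59 and 0.95). For mt-Co1 and Cox4i1, r was -0.299 and rho -0.0500 (exact permutation, p = 0.48 and 0.91), and for mt-Atp6 and Atp5b, r was -0.533 and rho -0.250 (exact permutation, p = 0.13 and 0.52). After Benjamini-Hochberg adjustment over the 4 pairs, p was 0.52 to 0.77 for r and 0.95 for each rho, so no relation was shown. Without the 2 libraries farthest from the median of the mitochondrial gene, r was -0.483, -0.353, -0.158 and 0.157 in the same order (exact permutation, p = 0.28, 0.41, 0.76 and 0.69). Centred within prefixes B and C, r was 0.650, 0.672, 0.672 and 0.222 (exact permutation within prefixes, p = 0.15, 0.17, 0.23 and 0.60). Each pair thus changed sign in at least 1 of these settings, and for mt-Co1 and Cox4i1 only the centring turned it.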

How the data were processed

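RNA of 9 WTg clones was sequenced from stranded mRNA libraries. Per the submitters' processing notes, FastQC 0.11.9, STAR 2.7.10 and RSEM 1.3.3 were used with GRCm38. The authors deposited log2 values of scaled counts with an offset of 4, and the scaling software is not given in the sources used here. Undoing the log2 and subtracting 4 gave normalized counts, and whole reads were recovered for 100% of nonzero values under 1000 reads. The strand setting used in counting is not given in the sources used here, so overlapping mitochondrial genes (mt-Atp8 and mt-Atp6, mt-Nd4l and mt-Nd4, mt-Nd5 and mt-Nd6) may share reads. The 6 columns of other studies were not used. The floor of 3 reads covers counting error only, and the ± values are spread between libraries (SD) or limma's SE.

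The subunit genes, lists and named genes were chosen with earlier results of these data known. Named were all mitochondrial genes, the highest, lowest and most variable nuclear gene of each complex, paralogs, the 5 smallest p and the 5 farthest A1 values in each direction, and up to 2 genes per related list, except for 1 result that is not reported here. Tests were run over all genes whose mean reached 10 normalized counts, with limma 3.58.1 (eBayes with trend, R 4.3.3) on log2(normalized counts + 1) and Benjamini-Hochberg adjustment. The planned count test was not used, because the values are log2. voom on recovered reads was an alternative, as were other scalings, a pseudocount of 0.1, other filters, no trend and left-out libraries. The tests were also run on simulated data, of which no result is given here. In those for Mettl3, unchanged genes had no library that stood apart, so slopes that rest on A1 were not checked by them. Correlations were tested over all pairings of the libraries. Values were computed in Python 3.11.15 (scipy 1.17.1, pandas 2.3.3, numpy 2.4.6) and drawn with matplotlib 3.10.9. The nuclear copies were examined after their values were seen.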

Additional observations from a re-analysis of the deposited data

Results flagged for a closer look

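Of the 95 subunit genes tested, 20 had a library far from the other 8, judged by the gap to the nearest library over the whole range of the 9, in normalized counts. Chance gives about 4.75 among 95, and the genes are not independent. The rule was applied to the subunit genes only, so no share over all genes tested stands beside this count. Of all genes tested, the prefix A library was above the other 8 in 19.9% and below them in 20.4%.

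The prefix A library was the far one in 14 of the 20. It was the highest for 12 genes, with ratios of gap to range of 0.860 for Ndufb4, 0.834 for Atp5l, 0.710 for Ndufb1, 0.689 for Uqcrc2, 0.627 for Cox7c, 0.613 for Uqcrh, 0.608 for Cox6c, 0.594 for Atp5g2, 0.580 for Cox4i1, 0.557 for Ndufs1, 0.543 for Atp5a1 and 0.496 for Ndufv1. It was the lowest for Cox5b (0.607) and Cox5a (0.543).

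In the 6 others a prefix C library stood apart. C1 was the highest for Atp5d (0.591), Ndufs8 (0.506) and Uqcrc1 (0.494), C4 was the highest for Cox6b2 (0.720), and C2 was the lowest for Ndufa13 (0.696) and Sdha (0.498). No mitochondrial gene was among the 20. On the log2 scale, a choice made after seeing the data, 22 genes stood out, 17 of them the same, and they included mt-Co3 (0.813, low in B1), mt-Nd3 (0.620, low in A1) and mt-Atp6 (0.519, low in A1).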

How the results depend on the processing

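No paired analysis was possible because there is 1 condition and the column names carry no number of a sample title. Levels per coding length were not computed for nuclear genes, since no lengths were at hand. The count of 0 subunit genes called between prefixes B and C was kept in all 17 alternatives, left-out libraries (0 to 0) included. At an unadjusted p under 0.05 there were 9 to 16 subunit genes, against 1883 to 3673 of all genes tested. All genes called went from 9 to 259, the latter without C3. The nuclear copies, added after seeing the data, moved the mitochondrial to nuclear ratio from 3.43 to 4.99 and the share of all counts from 2.74% to 3.71%.

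Of 386 genes called for Mettl3, 5 were subunit genes. These became 8 of 499 with no filter, 3 of 381 without a trend and 2 of 61 with voom. They were 0 of 0 without the prefix A library or without the 2 libraries farthest from the median of Mettl3. Slopes reversed without the prefix A library for Atp5l (-0.23), Ndufb1 (-0.0160), Ndufb4 (-0.0422) and mt-Nd3 (1.31), and without the 2 farthest for Atp5l (-0.58), Ndufb1 (-0.10), Ndufb4 (-0.25), Uqcrc2 (-0.00355) and mt-Nd3 (0.75). The alternatives' construction, fewer libraries, takes out the 1 high value of Mettl3. After scaling to the upper quartile or the library total, 2 subunit genes rose and 3 or 4 fell, in place of 4 and 1. Of all genes tested, 36 or 39 rose and 414 or 376 fell, in place of 53 and 333.

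In no setting did a correlated pair pass. Pearson's r reversed without the 2 farthest libraries for mt-Nd1 with Ndufs1 (-0.483), mt-Cytb with Uqcrc1 (-0.353) and mt-Atp6 with Atp5b (0.157), and when centred within prefixes for mt-Co1 with Cox4i1 (0.672) and mt-Atp6 with Atp5b (0.222); the cause was not tested. Depth limits Cox6c2 and the minor Cox paralogs, and shared sequence limits the mitochondrial genes.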
